A study of Mus musculus with 9 samples.

Results

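The 10 genes described here encode receptors, ligands, the DNA-binding factor and effectors of the Notch pathway. They were chosen by symbol and are Notch1, Notch2, Notch3, Dll1, Dll3, Jag1, Rbpj, Hes1, Hes5 and Hey1, 10 of the 17482 genes in the deposited table. Expression was measured by bulk RNA sequencing in tumour tissue of mice at postnatal day 8 or 9, recorded under the tissue name MB. Every animal carried fSMO-M2, a conditional allele of a constitutively active Smoothened that switches on Hedgehog signalling, together with hGFAPcre, a Cre recombinase driven by the human GFAP promoter. Both YSGr (rescued) and YSGnr (non-rescued) mice had the genotype fYap1;fSMO-M2;hGFAPcre, in which Yap1 is floxed as well. SG mice had the genotype fSMO-M2;hGFAPcre. Each group held 3 libraries. The Cre acts in neural progenitors and their descendants, so other cells of the tissue keep an intact Yap1. What rescue means and how animals map to libraries are not given in the labels, and the p-values cover only library-to-library spread, which may be technical.

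Notch receptors sit in the cell membrane and are cut when a ligand on a neighbouring cell pulls on them. The freed intracellular domain enters the nucleus, binds RBPJ and a Mastermind coactivator, and switches on repressors of the Hes and Hey families. In the developing cerebellum, Notch signalling is known for keeping progenitors and Bergmann glia undifferentiated.

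Sequencing depth and composition differed between the libraries. YSGnr replicate 1 was the shallowest library, with 9.66 M back-calculated reads (M, mega) against a range of 17.3 to 29.2 M over the other 8, and 63.4% of its reads came from 2 genes. The 10 genes had between 17.6 and 471 reads in that library and between 134 and 4302 in the other 8. YSGr replicate 3 stood apart from YSGr replicates 1 and 2. The median chi-square per gene between it and them was 18.0 and 18.8, against 2.31 between replicates 1 and 2 and 0.455 from sampling alone. Xist, the RNA of the inactive X chromosome, measured 10.66, 10.48 and 9.81 log2 CPM (counts scaled for depth) in the YSGr libraries and 10.81, -0.68 and -0.25 in the YSGnr libraries, against -0.77, -1.25 and -1.38 in SG. The Y-linked Ddx3y was at -3.52, the lowest value present, in the 4 Xist-high libraries and at 5.38 and 4.97 in YSGnr replicates 2 and 3, against 5.82, 5.84 and 5.99 in SG. Group and sex transcripts therefore cannot be told apart between YSGr and SG. The same holds between YSGr and YSGnr in any fit that leaves out YSGnr replicate 1.

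Yap1, the targeted gene, averaged 3.51 ± 0.84 log2 CPM in YSGr and 2.45 ± 0.41 in YSGnr, against 5.06 ± 0.05 in SG (SD, n = 3 each). It fell by 1.55 log2 units in YSGr (limma, adjusted p = 0.0327) and fell by 2.61 in YSGnr (limma, adjusted p = 0.0131). Leaving out SG replicate 1, 2 or 3 ended both calls (limma, adjusted p of at most 0.114 in YSGr and 0.0955 in YSGnr), as did YSGr replicate 2 (0.125) or YSGnr replicate 2 (0.0513) in YSGr and YSGnr replicate 3 (0.0577) in YSGnr. Gene-level values do not separate deleted from remaining exons.

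Most of the 10 genes stood lower in both Yap1-floxed groups than in SG. In YSGr and again in YSGnr, 8 of the 10 had all 3 libraries below all 3 SG libraries, the exceptions being Hey1 and Dll3. Over all 15251 tested genes, 17.3% were this way round in YSGr and 21.3% in YSGnr. At an adjusted p below 0.05 over all tested genes, Jag1 and Hes5 fell in YSGr, 2 of 10 where 3.97% of all genes fell. Notch1, Notch3, Dll1, Rbpj and Hes5 fell in YSGnr, 5 of 10 where 2.17% of all genes fell. None of the 10 rose in either group, where 6.58% of all genes rose in YSGr and 1.19% in YSGnr. Hes5 was the one gene of the 10 called in both. The median log2 fold change of the 10 was -0.57 in YSGr and -1.02 in YSGnr, against -0.02 and -0.01 over all tested genes. Both comparisons use the same SG libraries. None of the 10 was called in either comparison (limma) when SG replicate 1, 2 or 3 was left out, with 5 of 10 in YSGr and 7 of 10 in YSGnr then at an unadjusted p below 0.05. Of all genes, 18.4% to 19.5% in YSGr and 16.1% to 17.1% in YSGnr were below it in these fits, and 2.15% to 2.73% and 0.125% to 0.151% were called. Without the 2 libraries that stand apart, YSGr replicate 3 and YSGnr replicate 1, 7 of the 10 fell in YSGr and 8 in YSGnr, where 26.1% and 26.3% of all genes fell. With only YSGnr replicate 1 left out, so that all YSGnr and SG libraries carry Y-linked transcripts, 6 of the 10 fell in YSGnr, where 11.3% of all genes fell.

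**Figure D1:**
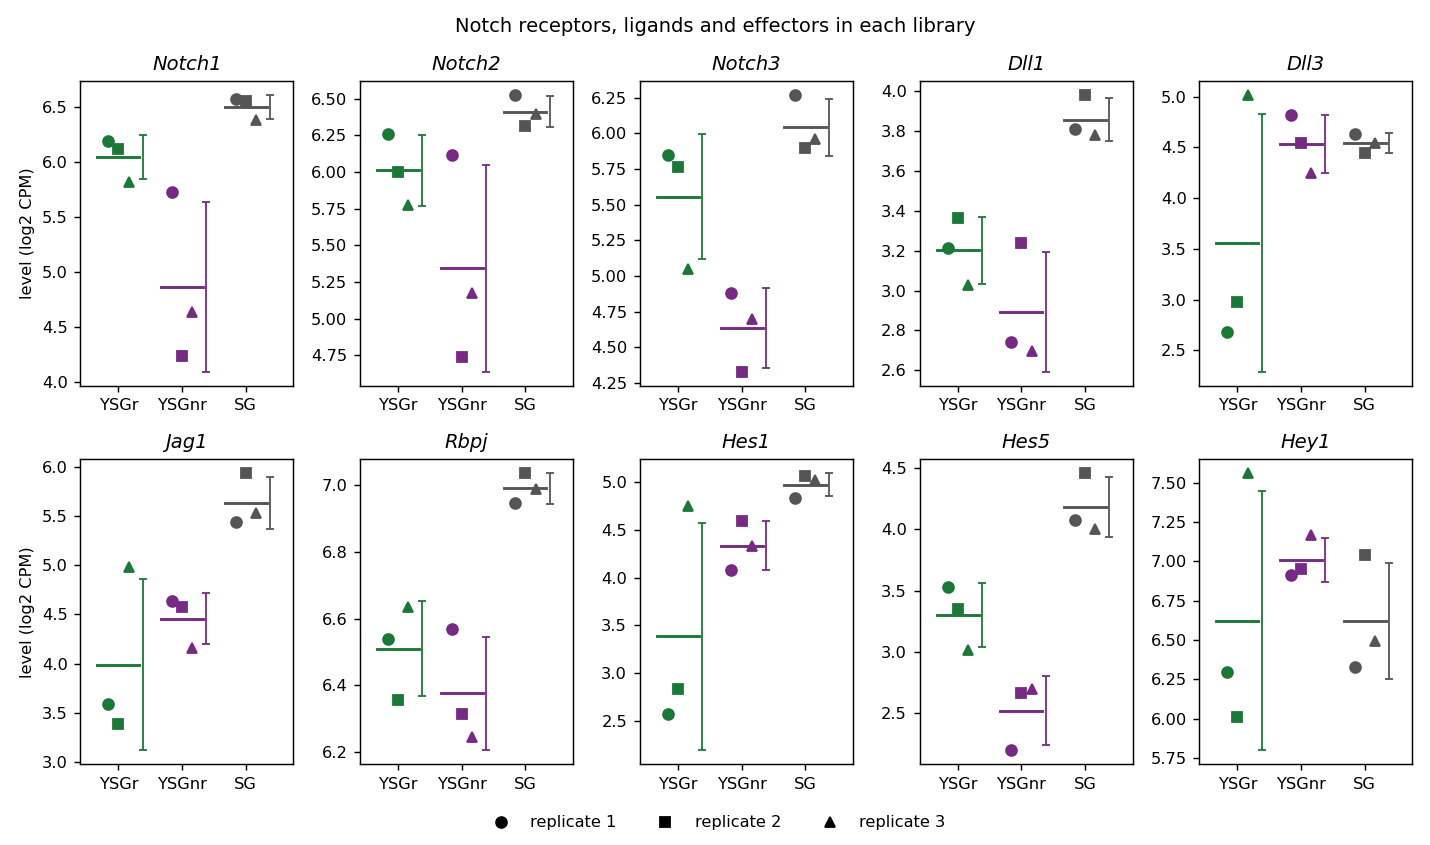
Level of each of the 10 genes in log2 CPM (vertical axis, a separate scale for each gene) in the YSGr, YSGnr and SG libraries. Symbols are single libraries by replicate number, horizontal lines are group means and bars are 1 SD (n = 3). YSGr replicate 3 is high for Dll3, Jag1, Hes1 and Hey1, and YSGnr replicate 1 is high for Notch1 and Notch2.

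Fold changes in YSGnr ran along with transcript length. Over the 869 tested genes with a longest annotated transcript of 8 kb or more, the median log2 fold change in YSGnr against SG was -0.53, with quartiles at -0.79 and -0.27. Over genes below 2 kb it was 0.31. In YSGr against SG these medians were -0.08 and -0.02. In YSGr against YSGnr they were 0.49 and -0.30. By library, the median of the long genes relative to the SG mean was 0.17, 0.11 and -0.43 in YSGr and -0.10, -0.69 and -0.82 in YSGnr. The 3 Notch receptors, with transcripts of 9.49 kb (Notch1), 10.5 kb (Notch2) and 8.02 kb (Notch3), belong to this class, and Hes5 (1.27 kb) and Hes1 (1.47 kb) to the shortest. The fold changes are therefore also given after a smooth trend on transcript length and GC content was removed from each library. With it removed, 5 of the 10 genes fell in YSGr (Notch3, Dll1, Jag1, Hes1 and Hes5), where 5.33% of all genes did. In YSGnr 4 fell (Notch1, Notch3, Dll1 and Hes5), where 2.87% of all genes did.

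**Figure D2:**
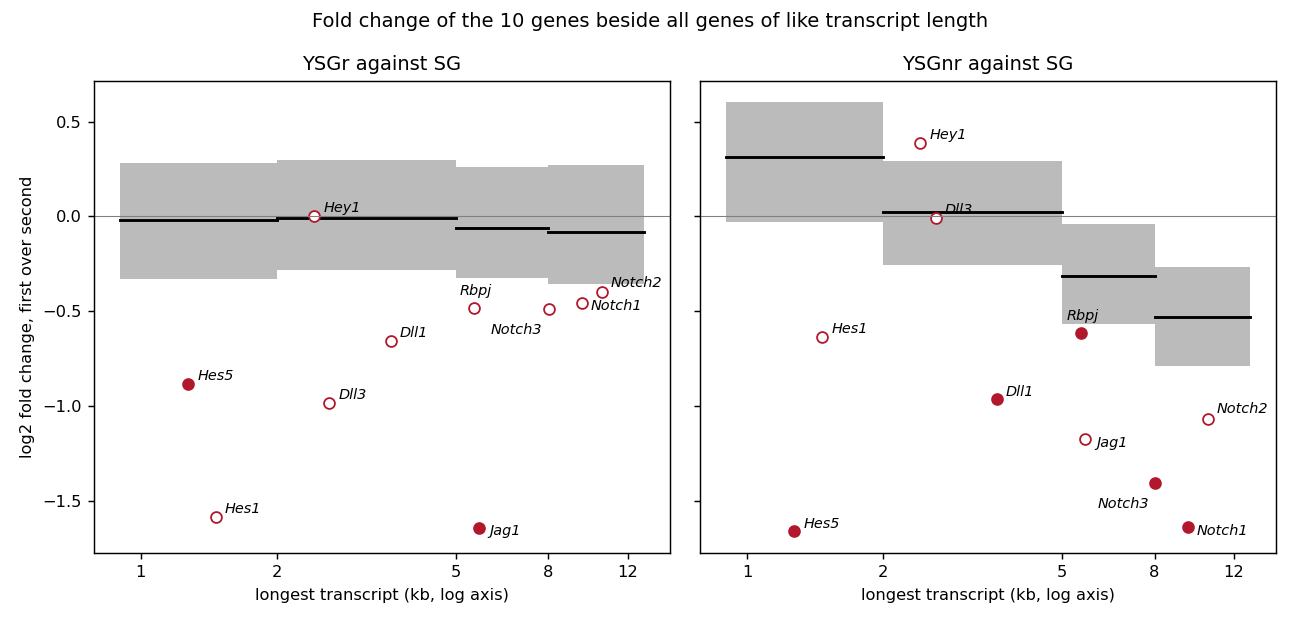
Log2 fold change against SG (vertical axis) by length of the longest transcript (horizontal log axis, kb) in YSGr and YSGnr. Red circles are the 10 genes, filled where called; black lines and grey boxes are the median and quartiles of all tested genes in 4 length classes. In YSGnr the grey boxes step down with length to a median of -0.53 at 8 kb and above, and Notch1, Notch2, Notch3, Dll1, Jag1, Hes1, Hes5 and Rbpj lie below the box of their own class.

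The promoters of Hes5, Notch1 and Rbpj are shown as those of called genes that hold the core of the RBPJ motif (Hes5 and Rbpj) or of the TEAD factors, the DNA-binding partners of YAP1 (Notch1 and Rbpj). Dll3, which was not called, also holds a TEAD core, at -234 on the minus strand, and is not printed. Windows of 300 bases, 250 before and 50 after a RefSeq start on GRCm38.p6, were matched for 8 of the 10 genes, with 10 windows in all. Hes1 and Hey1 had no window. Sequences run 5′ to 3′ on the strand of the gene. Capitals mark TGGGAA (RBPJ core) and CATTCC (TEAD core) on either strand, and the windows lie at chr4:154960673-154960972 (Hes5, plus strand), chr2:26503773-26504072 (Notch1, minus strand) and chr5:53590096-53590395 (Rbpj, plus strand).
Hes5: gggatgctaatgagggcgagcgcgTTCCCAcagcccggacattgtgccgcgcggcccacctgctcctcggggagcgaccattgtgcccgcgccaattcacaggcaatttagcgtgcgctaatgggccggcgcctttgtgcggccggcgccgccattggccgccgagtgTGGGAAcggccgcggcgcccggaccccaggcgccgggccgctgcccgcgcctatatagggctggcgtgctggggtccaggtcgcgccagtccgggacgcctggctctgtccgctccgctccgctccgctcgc
Notch1: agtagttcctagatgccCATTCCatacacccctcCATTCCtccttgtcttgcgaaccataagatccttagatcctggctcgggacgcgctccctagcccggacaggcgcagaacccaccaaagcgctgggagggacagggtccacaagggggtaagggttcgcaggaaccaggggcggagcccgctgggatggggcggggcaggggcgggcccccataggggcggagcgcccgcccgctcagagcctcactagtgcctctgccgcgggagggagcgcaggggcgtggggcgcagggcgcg
Rbpj: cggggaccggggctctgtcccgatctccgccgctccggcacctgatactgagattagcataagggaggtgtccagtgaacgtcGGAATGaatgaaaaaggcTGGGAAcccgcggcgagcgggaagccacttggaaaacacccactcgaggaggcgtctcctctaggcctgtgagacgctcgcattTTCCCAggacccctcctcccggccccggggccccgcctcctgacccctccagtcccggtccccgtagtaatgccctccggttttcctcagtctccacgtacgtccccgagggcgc
In the Hes5 window the RBPJ cores start at -226 (minus strand) and -82 (plus strand) relative to the start. In Notch1 the TEAD cores are at -233 and -216, both on the plus strand of the window as printed. In Rbpj the RBPJ cores are at -149 (plus) and -65 (minus) and the TEAD core at -167 (minus). Over the 10 windows, 3 held TGGGAA and 3 held CATTCC, against 25.6% and 14.7% of all 32851 RefSeq windows. The N-box CACNAG, a site form of Hes repressors, was in 4 of 10 windows against 42.5% of all, and the Gli core GACCACCCA in 0 of 10 against 0.253%. The motifs were searched on both strands. The TGGGAA and CATTCC matches do not overlap, and in Notch1 the N-box matches at -3 and -1 overlap each other. The second Rbpj window overlaps the first and shares 1 of its RBPJ cores. The Notch1 and Rbpj windows lie inside the annotated genes, downstream of the outer starts at 26516663 (Notch1) and 53466152 (Rbpj). Which start was used in this tissue was not tested.

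Among the receptors, Notch1 (chromosome 2, 26457903 to 26516663, minus strand; all gene positions are GRCm38) had the largest fall in YSGnr. It stood at 6.19, 6.11 and 5.82 log2 CPM in YSGr replicates 1 to 3 and at 5.72, 4.23 and 4.63 in the YSGnr libraries, against 6.57, 6.55 and 6.37 in SG. The groups did not overlap, with SG highest, YSGr between and YSGnr lowest, although YSGnr replicate 1 lay within 0.1 log2 units of YSGr replicate 3. Notch1 fell by 1.64 log2 units in YSGnr (SE 0.32, limma, adjusted p = 0.0329). The difference of -0.46 in YSGr (SE 0.32) was not called (limma, adjusted p = 0.419). With the length and GC trend removed, the YSGnr value was -1.26 (limma, adjusted p = 0.0135) and the YSGr value -0.65 (limma, adjusted p = 0.0538). Notch1 in YSGnr was not called when SG replicate 1, 2 or 3, YSGr replicate 1 or 2, or YSGnr replicate 2 or 3 was left out (limma, adjusted p = 0.154, 0.141, 0.131, 0.0537, 0.0567, 0.0776 and 0.129).

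Notch3 (chromosome 17, 32120820 to 32166852, minus strand), a receptor best known from vascular smooth muscle and pericytes and also made by neural progenitors, had 5.85, 5.76 and 5.05 log2 CPM in the YSGr libraries and 4.88, 4.33 and 4.70 in the YSGnr libraries, against 6.27, 5.89 and 5.96 in SG. All YSGnr libraries were below all YSGr libraries, and those below all SG libraries. Notch3 fell by 1.41 log2 units in YSGnr (SE 0.24, limma, adjusted p = 0.0212), and by 1.07 with the trend removed (limma, adjusted p = 0.0092). In YSGr the difference was -0.49 (SE 0.24, limma, adjusted p = 0.229). With the trend removed it was -0.71 and called (limma, adjusted p = 0.0156). In YSGnr it was no longer called when leaving out SG replicate 1, 2 or 3 or YSGnr replicate 2 or 3 (limma, adjusted p = 0.129, 0.0908, 0.0943, 0.0624 and 0.0787). The 10 mural cell markers summed to between 238 and 285 CPM in YSGr and between 208 and 259 in YSGnr, against 294 to 299 in SG, and their part in the Notch3 values was not tested. In bulk tissue, fewer cells of a type and less RNA per cell cannot be told apart.

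Notch2 (chromosome 3, 98013527 to 98150361, plus strand; log2 CPM of 6.26, 5.998 and 5.78 in YSGr and 6.12, 4.74 and 5.18 in YSGnr, against 6.53, 6.31 and 6.40 in SG) is the receptor described in proliferating granule neuron precursors. Its libraries were lower than SG in both groups, with YSGnr replicate 1 far above YSGnr replicates 2 and 3. The differences of -0.40 in YSGr (SE 0.30, limma, adjusted p = 0.461) and -1.07 in YSGnr (SE 0.30, limma, adjusted p = 0.0804) were not called. With the length and GC trend removed, the YSGnr difference was -0.65 and not called. Without YSGnr replicate 1 the YSGnr difference was -1.45 and called (limma, adjusted p = 0.00639), with the trend not removed. The median of genes of 8 kb or more relative to the SG mean was -0.69 and -0.82 in YSGnr replicates 2 and 3, against -0.10 in YSGnr replicate 1. Notch4, the endothelial receptor and not among the 10, had 3.51, 3.28 and 3.38 log2 CPM in the YSGr libraries and 3.21, 3.13 and 3.21 in the YSGnr libraries, against 3.67, 3.76 and 3.62 in SG, and was called in neither. The 10 endothelial markers summed to between 253 and 282 CPM in YSGr and between 161 and 221 in YSGnr, against 269 to 299 in SG. Of them, 3 fell in YSGnr and 0 in YSGr (limma), where 2.17% and 3.97% of all genes did.

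Of the 3 ligands, Jag1 had the largest difference in both groups. Jag1 (chromosome 2, 137081456 to 137116644, minus strand), a transmembrane ligand of the Jagged family, had 3.59, 3.39 and 4.98 log2 CPM in the YSGr libraries and 4.64, 4.58 and 4.16 in the YSGnr libraries, against 5.44, 5.93 and 5.53 in SG. Every Yap1-floxed library was below every SG library, and YSGr replicate 3 was the highest of these 6. Jag1 fell by 1.64 log2 units in YSGr (SE 0.37, limma, adjusted p = 0.0258), with the same value after the trend was removed (-1.64, limma, adjusted p = 0.0316). In YSGnr it was 1.18 log2 units below SG by its mean, a difference that was not called (SE 0.37, limma, adjusted p = 0.101). In YSGr it was no longer called when leaving out SG replicate 1, 2 or 3 or YSGr replicate 1 or 2 (limma, adjusted p = 0.0861, 0.108, 0.0797, 0.107 and 0.103). Without YSGr replicate 3 the YSGnr difference was called too (limma, adjusted p = 0.00715).

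Dll1 (chromosome 17, 15367354 to 15376872, minus strand), a Delta ligand expressed by differentiating neural cells, had 3.21, 3.36 and 3.03 log2 CPM in the YSGr libraries and 2.74, 3.24 and 2.70 in the YSGnr libraries, against 3.81, 3.98 and 3.78 in SG. The YSGr and YSGnr libraries overlapped each other and lay below SG. Dll1 fell by 0.96 log2 units in YSGnr (SE 0.19, limma, adjusted p = 0.0334) and by 1.03 with the trend removed (limma, adjusted p = 0.0299). In YSGr the difference of -0.66 (SE 0.19) missed the threshold (limma, adjusted p = 0.0576). It was -0.80 and called with the trend removed (limma, adjusted p = 0.032). Dll1 in YSGnr was not called without SG replicate 1, 2 or 3, YSGr replicate 1 or 2, or YSGnr replicate 3 (limma, adjusted p = 0.154, 0.153, 0.142, 0.0583, 0.0549 and 0.123).

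Dll3 (chromosome 7, 28293553 to 28302238, minus strand), a divergent Delta protein that acts within the cell and dampens Notch signalling, did not follow the other ligands. It had 2.68, 2.98 and 5.02 log2 CPM in the YSGr libraries and 4.82, 4.55 and 4.24 in the YSGnr libraries, against 4.64, 4.45 and 4.54 in SG. YSGr replicates 1 and 2 were the lowest of the 9 libraries and YSGr replicate 3 the highest. The difference in YSGr was -0.98 (SE 0.51, limma, adjusted p = 0.26) and that in YSGnr -0.01, with a 95% interval of -1.15 to 1.14. Without YSGr replicate 3, Dll3 in YSGr was -1.71 and called (limma, adjusted p = 0.000522). The call of Dll3 rests on whether that library enters.

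Rbpj (chromosome 5, 53466152 to 53657362, plus strand), the DNA-binding partner through which all Notch receptors act on their targets, had small differences with little spread. It had 6.54, 6.36 and 6.64 log2 CPM in the YSGr libraries and 6.57, 6.31 and 6.24 in the YSGnr libraries, against 6.95, 7.04 and 6.99 in SG, so that SG was above both groups and these overlapped. Rbpj fell by 0.62 log2 units in YSGnr (SE 0.13, limma, adjusted p = 0.0433). With the trend removed this was -0.35 and no longer called (limma, adjusted p = 0.188). In YSGr the difference was -0.48 (SE 0.13, limma, adjusted p = 0.0509). The YSGnr call also ended on leaving out SG replicate 1, 2 or 3, YSGr replicate 1 or 2, or YSGnr replicate 2 or 3 (limma, adjusted p = 0.173, 0.177, 0.178, 0.0731, 0.0635, 0.105 and 0.155).

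The effectors did not move as a block: Hes5 fell in both Yap1-floxed groups, Hes1 was lowest in 2 YSGr libraries and Hey1 was lower in neither group. Hes5 (chromosome 4, 154960923 to 154962371, plus strand), a repressor that keeps neural stem cells from differentiating and a direct Notch target, had 3.53, 3.35 and 3.01 log2 CPM in the YSGr libraries and 2.19, 2.67 and 2.70 in the YSGnr libraries, against 4.07, 4.46 and 4.004 in SG. The 3 groups did not overlap. Hes5, whose promoter window holds a pair of RBPJ cores, fell by 0.88 log2 units in YSGr (SE 0.22, limma, adjusted p = 0.0336) and by 1.66 in YSGnr (SE 0.22, limma, adjusted p = 0.0108). With the trend removed it fell by 1.03 in YSGr (limma, adjusted p = 0.0231) and by 1.94 in YSGnr (limma, adjusted p = 0.0074). The YSGr call ended on leaving out SG replicate 1, 2 or 3 or YSGr replicate 1 or 2 (limma, adjusted p = 0.104, 0.14, 0.084, 0.074 and 0.107). The YSGnr call ended on leaving out SG replicate 1, 2 or 3 (limma, adjusted p = 0.0753, 0.0802 and 0.0582) and held when any one of the other 6 libraries was left out.

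Hes1 (chromosome 16, 30064384 to 30067796, plus strand), the other main Hes repressor of neural progenitors, had 2.57, 2.83 and 4.75 log2 CPM in the YSGr libraries and 4.08, 4.59 and 4.33 in the YSGnr libraries, against 4.83, 5.06 and 5.02 in SG. All 6 Yap1-floxed libraries were below SG, YSGr replicate 3 by less than 0.1 log2 units from the nearest. Its difference was -1.58 in YSGr (SE 0.48, limma, adjusted p = 0.0647) and -0.64 in YSGnr (SE 0.48, limma, adjusted p = 0.41). In YSGr it was called with the trend removed, at -1.55 (limma, adjusted p = 0.0308), and without YSGr replicate 3, at -2.27 (limma, adjusted p = 0.000145). Without YSGr replicate 3 the YSGnr difference passed as well (limma, adjusted p = 0.0327).

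Hey1 (chromosome 3, 8663359 to 8667256, minus strand), a repressor related to the Hes proteins, had 6.30, 6.01 and 7.56 log2 CPM in the YSGr libraries and 6.91, 6.95 and 7.17 in the YSGnr libraries, against 6.33, 7.04 and 6.49 in SG. The groups overlapped, with the lowest and the highest library both in YSGr. The differences were 0.0028 in YSGr, with a 95% interval of -0.81 to 0.81, and 0.39 in YSGnr, with an interval of -0.42 to 1.20. With the trend removed the YSGr value was -0.08, and without YSGr replicate 3 it was -0.47, so its sign in YSGr is not settled.

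Between the 2 Yap1-floxed groups, none of the 10 genes passed the test in limma, where 5.97% of all tested genes did, and 3 had an unadjusted p below 0.05, as did 33.9% of all genes. With voom on back-calculated reads 2 passed, where 11.8% of all genes did. Notch1, Notch3 and Hes5 had all YSGr libraries above all YSGnr libraries, which 15.0% of all genes did. The log2 difference was 1.18 for Notch1 (95% interval 0.47 to 1.90, adjusted p = 0.0583), 0.92 for Notch3 (adjusted p = 0.0521) and 0.78 for Hes5 (adjusted p = 0.0611). With the trend removed, Hes5 was called at 0.92 (limma, adjusted p = 0.0427), 1 of 10 where 10.7% of all genes were. Notch1 and Notch3 were then at 0.61 and 0.36 and not called. The median of the 10 was 0.22, against 0.01 over all genes, and 0.05 with the trend removed. Leaving out YSGr replicate 3 gave 7 called genes, where 42.8% of all genes were called: Notch1 (1.29), Notch3 (1.17) and Hes5 (0.92) were higher in YSGr, and Hes1 (-1.63), Dll3 (-1.71), Jag1 (-0.96) and Hey1 (-0.85) lower. Leaving out YSGnr replicate 1 gave 3 of 10, with Notch1 at 1.61, Notch2 at 1.06 and Notch3 at 1.04, all higher in YSGr, a share near that of all genes called (31.0%). Without that library, every YSGr library was high in Xist and every YSGnr library expressed Ddx3y, so group and sex transcripts cannot be told apart. The length and GC trend was not removed in the fits that left out a library.

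**Figure D3:**
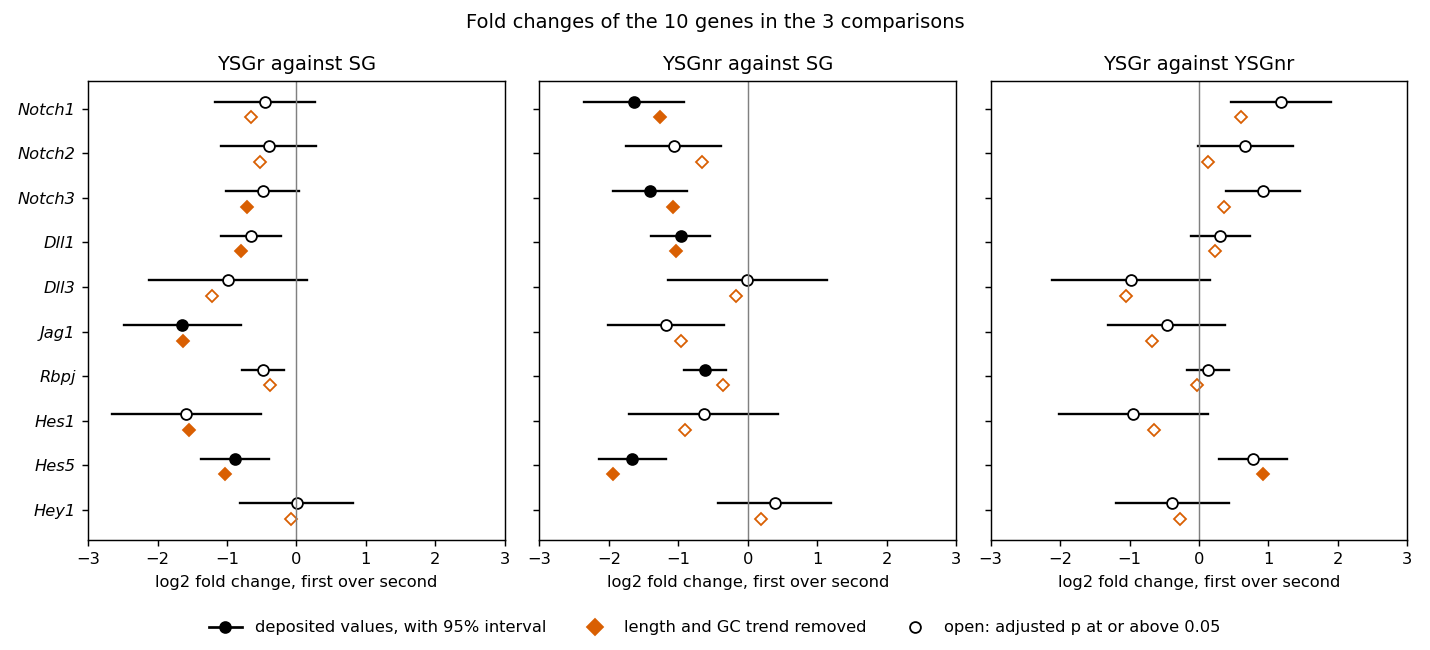
Log2 fold change (horizontal axis, first group over second) of the 10 genes in the 3 comparisons. Black circles are deposited values with 95% intervals, diamonds have the length and GC trend removed, and open symbols have an adjusted p at or above 0.05. Filled circles are Jag1 and Hes5 in YSGr against SG, Notch1, Notch3, Dll1, Rbpj and Hes5 in YSGnr against SG, and none in YSGr against YSGnr.

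Of 58 further genes of the pathway, 57 were tested. In YSGr 5 fell and 3 rose, where 3.97% and 6.58% of all genes did. In YSGnr 3 fell and 0 rose (limma), where 2.17% and 1.19% of all genes did. Their median log2 fold change was -0.05 in YSGr and -0.31 in YSGnr.

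Nrarp, a direct Notch target that encodes a feedback inhibitor of the pathway, had 4.18, 4.20 and 4.51 log2 CPM in the YSGr libraries and 4.48, 4.95 and 4.73 in the YSGnr libraries, against 5.36, 5.53 and 5.36 in SG. It fell by 1.12 log2 units in YSGr (SE 0.16, limma, adjusted p = 0.00545), a call kept in all 21 alternative settings run, and had a difference of -0.70 in YSGnr (limma, adjusted p = 0.0512). Heyl, a Hey-family repressor known from mural cells, had 2.92, 2.85 and 3.17 log2 CPM in the YSGr libraries and 3.29, 3.27 and 2.90 in the YSGnr libraries, against 4.10, 4.07 and 3.81 in SG. It fell by 1.01 in YSGr (limma, adjusted p = 0.011) and by 0.84 in YSGnr (limma, adjusted p = 0.0404). The YSGr call of Heyl ended on leaving out SG replicate 1 or 2 or YSGr replicate 1 or 2 (limma, adjusted p = 0.0671, 0.0613, 0.0531 and 0.0576). In YSGnr it was lost without any 1 of SG replicates 1 to 3, YSGr replicates 1 and 2 and YSGnr replicates 2 and 3 (limma, adjusted p = 0.187, 0.174, 0.134, 0.07, 0.0654, 0.0808 and 0.139). Both genes, like Hes5, were lower than SG in all 6 Yap1-floxed libraries.

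Among regulators, Lfng, a fringe glycosyltransferase that tunes which ligands a receptor answers, had 4.32, 4.28 and 5.52 log2 CPM in the YSGr libraries and 5.35, 5.92 and 6.16 in the YSGnr libraries, against 6.37, 6.14 and 6.03 in SG. It fell by 1.48 in YSGr (SE 0.33, limma, adjusted p = 0.0256). The corepressor Tle1, a Groucho protein that Hes factors recruit, fell by 1.35 in YSGr (SE 0.34, limma, adjusted p = 0.0359). Mib1, the ubiquitin ligase that lets ligands be internalised, fell by 0.91 in YSGr (SE 0.17, limma, adjusted p = 0.016) and by 1.04 in YSGnr (SE 0.17, limma, adjusted p = 0.021). L3mbtl3, a protein that binds RBPJ in repression, fell by 0.66 in YSGnr (SE 0.14, limma, adjusted p = 0.0365). With the trend removed, Mib1 and L3mbtl3 in YSGnr missed the threshold (limma, adjusted p = 0.0652 and 0.0504).

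The 3 genes that rose in YSGr, of 57 tested, were Numbl, Fbxw7 and Aph1b, where 6.58% of all genes rose. Numbl, a relative of the Notch inhibitor Numb, rose by 0.70 log2 units (SE 0.15, limma, adjusted p = 0.0239). Fbxw7, the ubiquitin ligase component that marks the Notch intracellular domain for destruction, had 6.68, 6.70 and 6.02 log2 CPM in the YSGr libraries and 5.73, 5.37 and 5.21 in the YSGnr libraries, against 5.67, 5.63 and 5.72 in SG. It rose by 0.80 in YSGr against SG (SE 0.21, limma, adjusted p = 0.0395) and was higher by 1.03 in YSGr than in YSGnr (SE 0.21, limma, adjusted p = 0.0352). Aph1b, a subunit of the receptor-cutting gamma-secretase, rose by 0.84 (SE 0.19, limma, adjusted p = 0.0269). Its near copy Aph1c may share reads with it, so this value is uncertain. In the lists with no called gene, the members with the highest CPM, not scaled by length, are given as values, and none was called in limma. The RBPJ complex member Snw1 had 6.19, 6.05 and 6.69 log2 CPM in the YSGr libraries and 6.37, 7.14 and 7.02 in the YSGnr libraries, against 6.44, 6.51 and 6.54 in SG. The coactivator Ep300, a histone acetyltransferase, had 7.10, 6.91 and 6.43 log2 CPM in the YSGr libraries and 6.70, 5.38 and 5.59 in the YSGnr libraries, against 6.73, 6.86 and 6.73 in SG. Both groups overlapped SG for Snw1, and YSGnr lay below SG for Ep300. The proneural factor Neurod1 had 9.48, 9.18 and 7.998 log2 CPM in the YSGr libraries and 8.49, 8.13 and 7.83 in the YSGnr libraries, against 7.71, 7.98 and 8.14 in SG.

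In YSGr against YSGnr, 4 of the 57 other genes were higher and 1 lower, where 5.09% and 0.879% of all genes were. Besides Fbxw7, the higher ones were the ligand Jag2 (0.95, SE 0.21, limma, adjusted p = 0.042) and the non-canonical ligands Dlk2 (1.13, SE 0.28, limma, adjusted p = 0.0475) and Dner (1.27, SE 0.31, limma, adjusted p = 0.0475). Jag2 had 4.48, 4.49 and 3.80 log2 CPM in the YSGr libraries and 3.56, 3.10 and 3.24 in the YSGnr libraries, against 3.68, 3.59 and 3.71 in SG. The lower one was Poglut1, which adds O-glucose to Notch receptors (-0.76, SE 0.18, limma, adjusted p = 0.0475). These differences between YSGr and YSGnr, 5 with Fbxw7, were each lost with the 6 libraries of the 2 groups alone and when any 1 of the libraries other than YSGr replicate 3 and YSGnr replicate 1 was left out (limma, adjusted p between 0.073 and 0.208).

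For the YSGr calls of Lfng, Tle1, Numbl, Fbxw7 and Aph1b, leaving out SG replicate 1, 2 or 3 or YSGr replicate 1 or 2 ended the call. The adjusted p (limma) then reached at most 0.108 for Lfng, 0.136 for Tle1, 0.105 for Numbl, 0.156 for Fbxw7 and 0.115 for Aph1b. For Mib1 in YSGr this happened without SG replicate 1, 2 or 3 or YSGr replicate 2, with an adjusted p (limma) of at most 0.0807. For Mib1 in YSGnr it happened without SG replicate 1, 2 or 3 or YSGnr replicate 3 (at most 0.13, limma), and for L3mbtl3 without any library other than YSGr replicate 3 and YSGnr replicate 1 (at most 0.173, limma). Tle1 and Fbxw7 in YSGr were also lost without YSGnr replicate 2 (limma, adjusted p = 0.0563 and 0.0589), and Tle1 without YSGnr replicate 3 (limma, adjusted p = 0.0554). Tle1 was not called with the 6 libraries of the comparison alone (limma, adjusted p = 0.0672), nor Fbxw7 in YSGr with median scaling (limma, adjusted p = 0.0521).

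**Figure D4:**
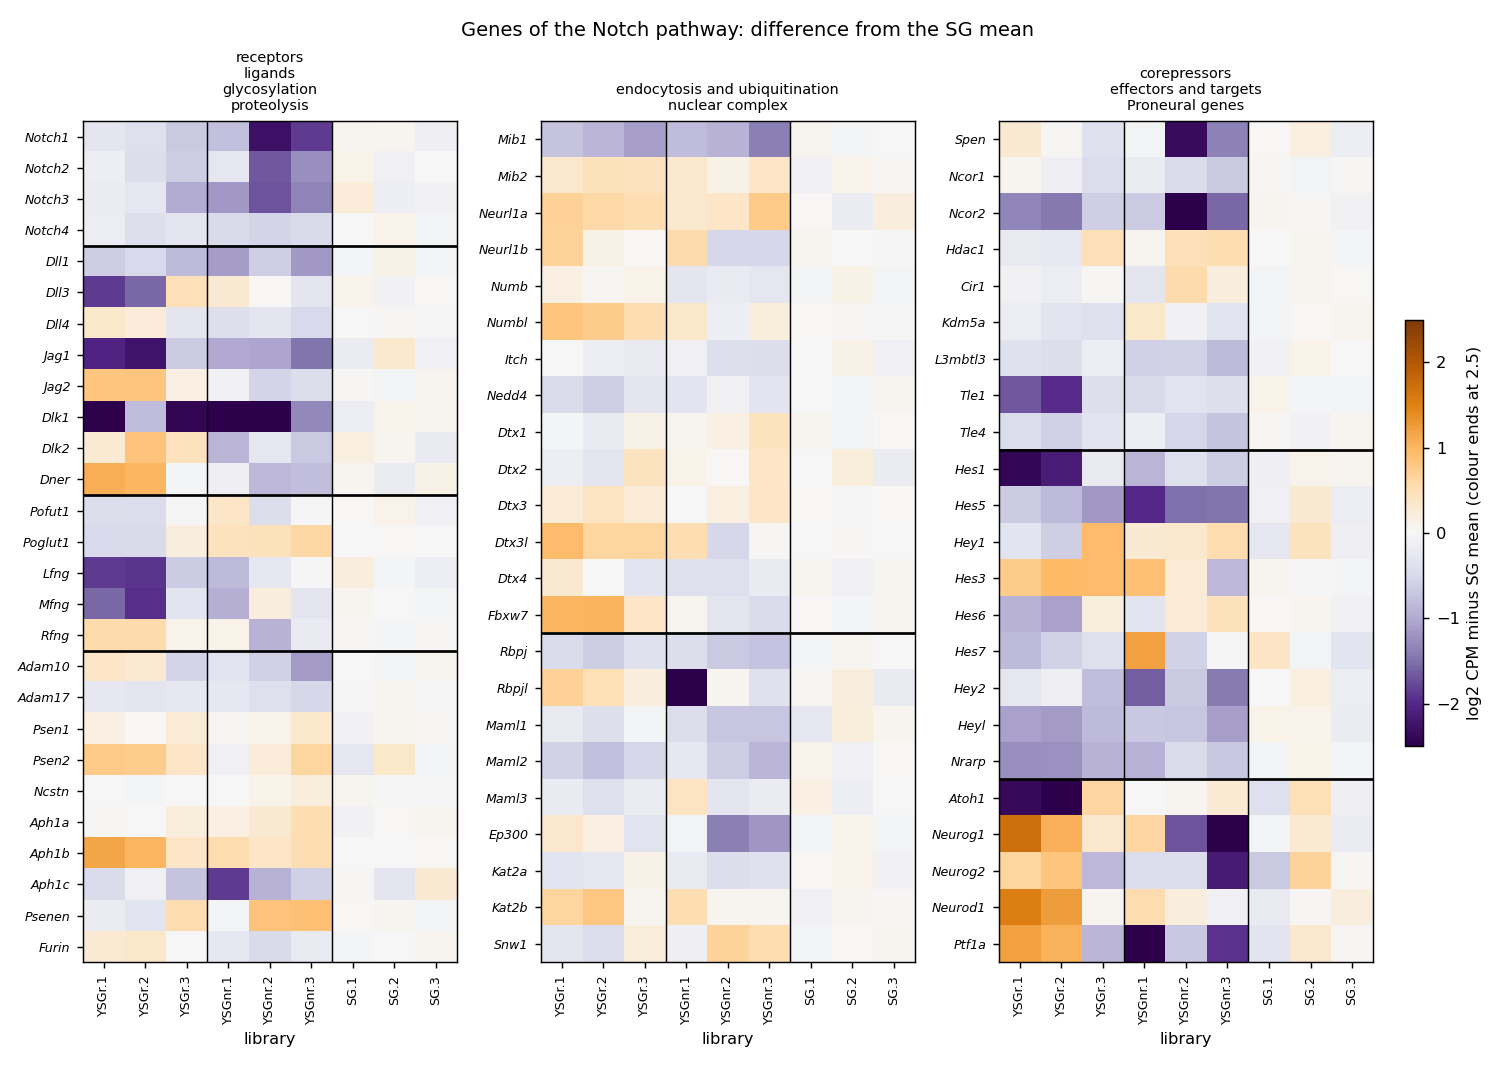
Difference from the SG mean in log2 CPM (colour, purple lower and orange higher, ending at 2.5) for the Notch pathway and proneural genes (rows, thick lines separate lists) in each library (columns, YSGr, YSGnr and SG). Hes5, Heyl and Nrarp are among the genes that are purple in all 6 Yap1-floxed libraries, and YSGr replicates 1 and 2 are dark purple for Jag1, Hes1, Lfng and Mfng.

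Cell type markers differed between the groups as well. For the counts that follow, 6.58% of all tested genes rose and 3.97% fell in YSGr, and 1.19% rose and 2.17% fell in YSGnr (limma). The tissue expressed granule neuron progenitor markers in every library, with a summed level over 10 genes of 2645 to 3797 CPM in YSGr and 4071 to 4301 in YSGnr, against 4406 to 4572 in SG, and 3 of the 10 fell in YSGr and 0 in YSGnr (limma). Markers of mature granule neurons summed to between 1461 and 2738 CPM in YSGr and between 896 and 1316 in YSGnr, against 749.7 to 906 in SG. Of these 10 markers, 7 rose in YSGr and 5 in YSGnr. Neural stem cell and astroglial markers, 12 genes, summed to between 2911 and 3919.9 CPM in YSGr and between 2089.7 and 2935 in YSGnr, against 3537 to 3680.4 in SG. There, 2 rose and 2 fell in YSGr, and 1 rose and 3 fell in YSGnr. Oligodendrocyte lineage markers, 10 genes, summed to between 2469 and 3714 CPM in YSGr and between 1315 and 2287 in YSGnr, against 1047 to 1608 in SG, with 6 higher and 2 lower in YSGr and 2 higher in YSGnr by the test. Purkinje cell markers, 5 genes, summed to between 749 and 1103 CPM in YSGr and between 279 and 492 in YSGnr, against 379 to 409.7 in SG, with 3 higher in YSGr and 2 in YSGnr by the test. No marker of these lists was at the lowest value in any library. The part of these cell types in the Notch gene levels was not tested.

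**Figure D5:**
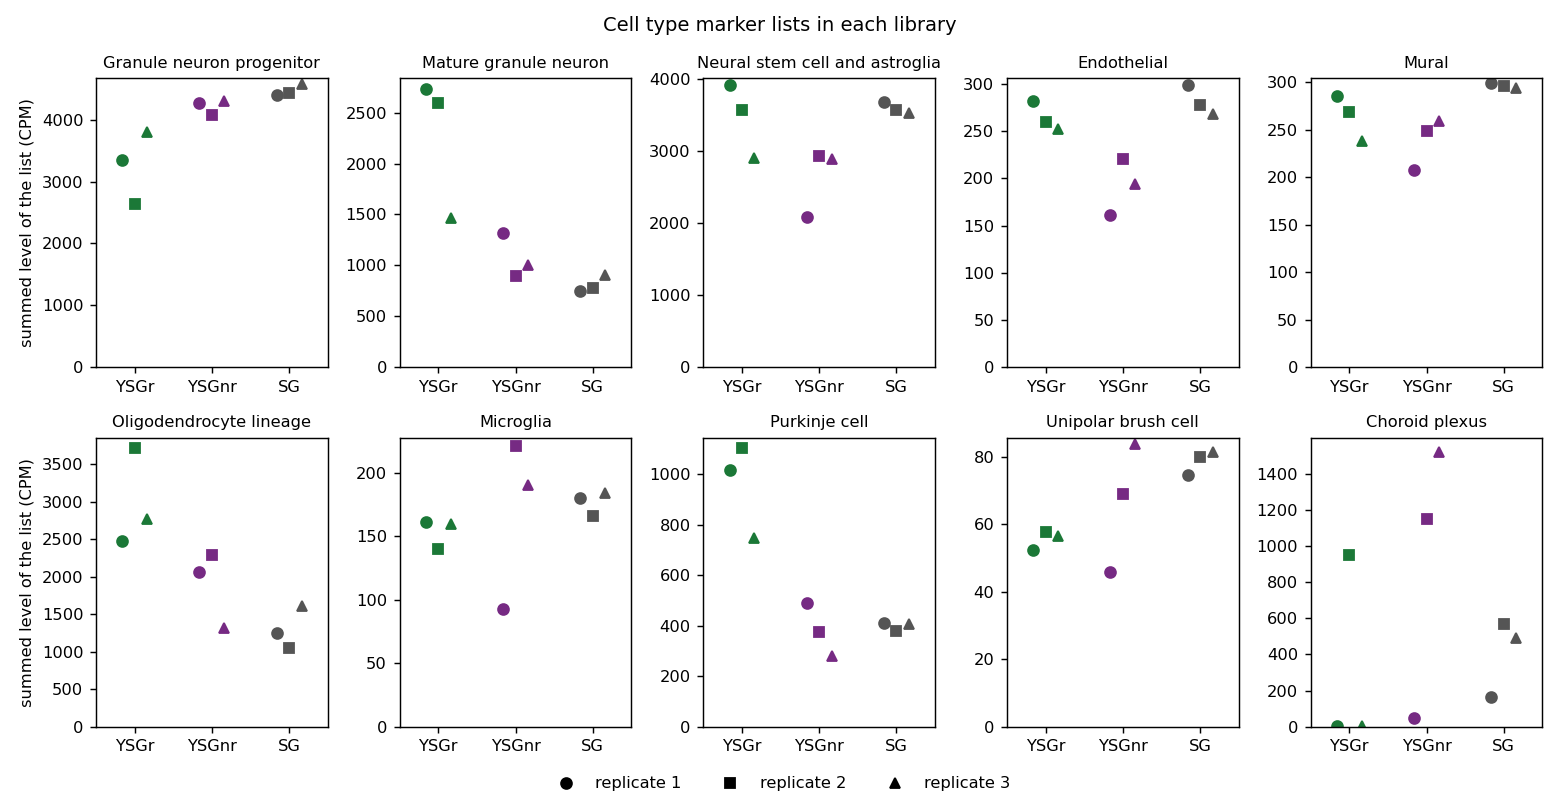
Summed level of 10 cell type marker lists in CPM (vertical axes, starting at 0) in each YSGr, YSGnr and SG library (symbols by replicate number). Mature granule neuron markers are highest in YSGr replicates 1 and 2, at 2738 and 2593 CPM, and the choroid plexus list ranges from 2.45 to 953 CPM within YSGr.

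Per kilobase of longest transcript, Hey1 was the most abundant of the 10 and Dll1 the least in every group. On a scale of log2 CPM per kb, Hey1 averaged 5.35 ± 0.82 in YSGr and 5.73 ± 0.14 in YSGnr, against 5.34 ± 0.37 in SG. Rbpj averaged 4.05 ± 0.14, 3.92 ± 0.17 and 4.53 ± 0.05 in YSGr, YSGnr and SG. In SG, Hes1 followed at 4.42 ± 0.12, which does not differ from Rbpj beyond the spread, and then Hes5 at 3.83 ± 0.25. Notch1 (3.25 ± 0.11), Dll3 (3.15 ± 0.09), Jag1 (3.15 ± 0.26), Notch3 (3.04 ± 0.20) and Notch2 (3.02 ± 0.11) came next in SG, with each neighbour in that order within the spread of the other. Dll1 was last at 2.02 ± 0.11. In YSGnr, Hes5 was at 2.17 ± 0.28 per kb and stood below Dll3 at 3.15 ± 0.29, the other way round from SG. Longest annotated transcripts need not be the ones expressed.

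The profiles of the 10 genes over the 9 libraries were closest among the receptors and between Dll1 and Rbpj. Likeness was measured as the root-mean-square difference between log2 profiles, each centred on its own mean. Profiles were not scaled by their SD, so genes that vary little are close whatever their pattern. Dll1 and Rbpj both had an SD below 0.5. The closest pairs were Notch1 and Notch2 (0.27), Dll1 and Rbpj (0.27), Notch2 and Notch3 (0.29) and Notch1 and Notch3 (0.31). Hes1 was nearest to Jag1 (0.37) and Dll3 (0.38), which are among the genes with a high YSGr replicate 3, and Hes5 to Dll1 (0.35). Hey1, also high in that library, was further from Hes1 (0.72). Among all tested genes, those nearest to Hes5 were Sox2 (0.20), Tox (0.22) and Zfp934 (0.22), and those nearest to Hes1 were Loxl1 (0.19), Smco4 (0.21) and Sox1 (0.21). Nearest to Notch1 were Hipk2 (0.16), Shroom3 (0.20) and Lef1 (0.20), to Notch2 Fat1, Adnp and Celsr2 (0.09, 0.10 and 0.10), and to Notch3 Ncan, Gdf10 and Fndc3b (0.17, 0.18 and 0.18). Jag1 was most like Pou3f2 (0.19), Igf2bp3 (0.21) and Zdbf2 (0.23), and Dll3 most like Cpxm2 (0.12), 2310058D17Rik (0.19) and Tfap4 (0.27). The 9 libraries share their groups, depth and length trend, so likeness is a description only.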

How the data were processed

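RNA was extracted from tumour tissue with a Trizol-type protocol and sequenced at BGI on the DNBseq platform, per the labels' protocols. The submitters' processing notes name the build mm10 and, without versions, Bowtie2, RSEM, edgeR, Picard and Trimmomatic. Annotation and strandedness were not given in the sources used here. Log2 CPM values for 17482 genes in 9 libraries were deposited by the authors. The lowest value, -3.52 in every library, implies an added count of 2.00 reads. Back-calculated values below 50 reads were whole within 0.02 for 60.2% to 69.5%, so the counts were estimates and the main test was not a count test. Fold changes on this scale understate those of low genes.

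Group means were fitted to all 9 libraries with limma 3.58.1 in R 4.3.3 (mean-variance trend, two-sided). Genes above 0 log2 CPM in at least 3 libraries were tested, 15251 in all, and calls were made below 0.05 after Benjamini-Hochberg adjustment over them. GENCODE M21 (GRCm38) gave coordinates, transcript lengths and GC, matched for 95.6% of genes, and the length and GC trend was removed with natural splines of 4 degrees of freedom. Promoters came from RefSeq (GRCm38.p6), matched for 8 of the 10 genes. The 10 genes and all lists were chosen with earlier results of these data known. Other genes are named by a rule: up to 4 called per list by largest fold change, otherwise up to 2 by level (exceptions are marked), and for likeness the 3 nearest genes of each member with an SD of at least 0.5. Replicates differed by more than sampling noise, so none was merged. Alternatives were other filters, a pseudocount of 1 CPM, other scalings, 6 libraries alone, the replicate number as a block, array weights, voom, trend removal and omission of libraries. The steps were tested on simulated data. One listed gene is not reported here.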

Additional observations from a re-analysis of the deposited data

Results flagged for a closer look

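Of the 57 other pathway genes tested, 5 differed between the 2 Yap1-floxed groups, where 5.97% of all tested genes did. The calls are from a direct test of YSGr against YSGnr (limma, adjusted p below 0.05 over all tested genes). With the 6 libraries of the 2 groups alone, neither these 5 nor any other gene was called. Leaving out any 1 library other than YSGr replicate 3 and YSGnr replicate 1 also ended all 5 calls, with at most 10 of all genes then called. Values are log2 differences. The ligand Jag2 was higher in YSGr by 0.95 and the non-canonical ligand Dlk2 by 1.13, and for both all 3 YSGr libraries lay above and all 3 YSGnr libraries below the SG libraries. Dner, a transmembrane ligand of cerebellar neurons, was higher by 1.27, with YSGr replicate 3 at 7.71 log2 CPM and YSGr replicates 1 and 2 at 8.84 and 8.76, against 7.63, 6.89 and 6.97 in YSGnr. Fbxw7 was higher by 1.03. Poglut1 had a difference of -0.76, with 5.18, 5.20 and 5.87 log2 CPM in YSGr against 6.11, 6.14 and 6.27 in YSGnr. The adjusted p values lay between 0.0352 and 0.0475, and with median scaling between 0.0505 and 0.0602, so that none was called under it. Dlk2, Dner and Poglut1 were not called without the expression filter, nor Dlk2, Jag2 and Dner with quantile normalization. Beside these values, mature granule neuron markers summed to 1461 to 2738 CPM in YSGr and 896 to 1316 in YSGnr, against 749.7 to 906 in SG. Purkinje cell markers summed to 749 to 1103 CPM in YSGr and 279 to 492 in YSGnr, against 379 to 409.7 in SG. By the test, 4 of these 5 markers were higher in YSGr than in YSGnr, where 5.09% of all genes were. The part of either in the differences was not tested.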

How the results depend on the processing

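Over the 210 member results of 10 genes and 21 settings in each comparison, 7 changed sign in YSGr against SG, 4 in YSGnr against SG and 2 in YSGr against YSGnr. Of the 10 genes, 2 were called in YSGr against SG, where 10.5% of all genes were. This became 4 with the 6 libraries of the comparison alone (12.6% of all genes), 7 with array weights (63.3%) and 1 with the replicate number as a block (7.83%). It became 5 with the length and GC trend removed (13.1%), 5 with block and trend removal together (10.1%) and 5 with voom (14.4%). Without YSGr replicate 3 and YSGnr replicate 1 it was 7 (49.5%), and with any one library left out 0 to 5 (2.15% to 27.9%). In YSGnr against SG, 5 were called (3.36% of all genes), 8 without those 2 libraries (52.9%) and 0 to 8 with any one left out (0.125% to 21.8%). In YSGr against YSGnr, 0 were called (5.97% of all genes), 8 with array weights (65.4%) and 8 without those 2 libraries (64.7%). With the replicate block 2 were called (Notch1 and Notch3, adjusted p = 0.0473 and 0.0466, limma), where 5.64% of all genes were. The count was 1 with the trend removed (10.7%), 1 with block and trend removal (9.31%) and 2 with voom (11.8%). With any one library left out 0 to 7 were called (0.00656% to 42.8%). The fits without SG replicate 1, 2 or 3 called 0 of the 10 against SG, with 5 to 7 at an unadjusted p below 0.05 (limma), as were 16.1% to 19.5% of all genes. The fits without YSGr replicate 1 or 2 called 0 in YSGr (2.62% and 2.35% of all genes) and 2 in YSGnr (1.55% and 1.48%). In YSGr 6 and 5 of the 10 were then at an unadjusted p below 0.05 (limma), as were 18.9% and 18.4% of all genes. The fits without YSGnr replicate 2 or 3 called 2 and 1 in YSGnr (1.36% and 0.538% of all genes). Without YSGr replicate 3 the counts were 5, 8 and 7 in the order of the comparisons above, where 27.9%, 17.3% and 42.8% of all genes were called, and without YSGnr replicate 1, where YSGnr and SG share Y-linked transcripts, 4, 6 and 3, where 15.7%, 21.8% and 31.0% were. In the fits without YSGnr replicate 1, group and sex transcripts cannot be told apart between YSGr and YSGnr. Weight estimation stopped before its tolerance, with the lowest weights for YSGr replicate 3 (0.104) and YSGnr replicate 1 (0.117).

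Sign changes were found for Dll3 in YSGnr against SG (0.0115 with median scaling, 0.00435 with quantile normalization, 0.04 without SG replicate 1 and 0.14 without YSGnr replicate 3, with a range of -0.15 to 0.14 with any one library left out), for Hey1 in YSGr against SG (-0.28 with array weights, -0.0812 with the trend removed, -0.0812 with block and trend removal, -0.47 without YSGr replicate 3 and YSGnr replicate 1, and -0.47 to 0.31 with any one library left out) and for Rbpj in YSGr against YSGnr (-0.0357 with the trend removed, with and without the block). The cause was not tested.

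Same-numbered libraries did not deviate together, with correlations between -0.226 and 0.236, so the numbers were not taken as pairs. With the replicate block, Hes5 in YSGr and Rbpj in YSGnr against SG were not called (adjusted p = 0.0516 and 0.0676, limma), nor were Heyl and L3mbtl3 in YSGnr (0.0649 each) and Dlk2 in YSGr against YSGnr (0.0551). With block and trend removal, Rbpj, Heyl, L3mbtl3 and Mib1 in YSGnr (0.208, 0.0814, 0.0848 and 0.104) and Jag2 in YSGr against YSGnr (0.0633) were not called.

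Over all genes, 1608 were called in YSGr against SG (9661 with array weights, 7556 without both libraries, 328 to 4257 with any one left out), 512 in YSGnr against SG (1190 with 6 libraries alone, 7316 with weights, 341 with the block, 323 with block and trend removal, 852 with voom, 8074 without both, 19 to 3332 with any one left out) and 910 in YSGr against YSGnr (316 with median scaling, 0 with 6 libraries alone, though 3368 had an unadjusted p below 0.05 in limma, 9967 with weights, 1568 with the trend removed, 1800 with voom, 9867 without both, 1 to 6528 with any one left out). In YSGnr replicate 1 the depth limits the low genes, with 17.6 reads for Hes5.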

Other observations

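Dlk1 and Mfng were chosen after their values were seen. Dlk1, a non-canonical ligand, had -1.11, 0.55 and -1.05 log2 CPM in the YSGr libraries and -3.52, -1.57 and 0.06 in the YSGnr libraries, against 1.20, 1.45 and 1.43 in SG, and was not called. Its -3.52 in YSGnr replicate 1 is the lowest value of the table. The fringe genes Lfng and Mfng were lowest in YSGr replicates 1 and 2: Mfng stood at 3.18 and 2.81 log2 CPM in YSGr replicates 1 and 2 and at 4.43 in YSGr replicate 3, with 3.79, 4.93 and 4.45 in YSGnr, against 4.81, 4.74 and 4.69 in SG. Atoh1, the proneural factor of granule neuron progenitors, had 3.89, 3.34 and 6.89 log2 CPM in YSGr and 6.25, 6.31 and 6.53 in YSGnr, against 5.89, 6.76 and 6.15 in SG. It was also lowest in YSGr replicates 1 and 2, but in YSGr replicate 3 it lay above every SG library, where both fringe genes lay below every SG library. The choroid plexus markers summed to 2.45, 953 and 3.63 CPM in YSGr and to 45.9, 1154 and 1524 in YSGnr, against 167, 568 and 490.1 in SG.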
